A study of Mus musculus with 8 samples.

Results

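The 33 genes described here belong to the transcriptional response to type I interferon, followed in splenic regulatory T cells (Tregs) that lack the nuclear receptor coactivator SRC-3 and in control Tregs. They were taken by gene symbol from a list of 33 names, and all 33 were found among the 55487 genes of each of 2 deposited tables. The 8 libraries form 4 groups with 2 replicates each: SRC-3KO Tregs and control Tregs of tumor-bearing mice, and the same genotypes from mice without a tumor. All were C57BL/6 spleen cells, and per the labels' protocol all were sorted for GFP before SMART-Seq v4 cDNA amplification, which is made for small amounts of RNA. The names of both tumor controls give Foxp3-Cre, the recombinase driven from the Treg gene Foxp3, and so does the name of control replicate 2 without a tumor. Control replicate 1 without a tumor is named WT, and its source label leaves out GFP. Both SRC-3KO libraries without a tumor carry the word Tam1 in their names, and no other library does. Its meaning is not given, so it cannot be told apart from genotype without a tumor. The labels give no age, sex or tumor type, and do not say that replicates came from separate animals, so p-values measure only the spread between these samples, which may be technical.

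Type I interferons are secreted by cells that sense viral or misplaced nucleic acid and bind the receptor chains Ifnar1 and Ifnar2 on other cells. The receptor's kinases then activate transcription factors, among them Stat2, which joins Irf9 in the complex ISGF3, and ISGF3 binds the interferon-stimulated response element (ISRE) in the promoters of antiviral genes. Among the induced genes are the sensors and transcription factors of the same pathway, which raise the response further, and Usp18, which shuts the receptor down. In Tregs, type I interferon signalling is known to alter suppressive function and survival.

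The no-tumor libraries are counts, with 27452922 and 31075452 reads assigned to genes in SRC-3KO and 25251597 and 24159217 in control. They are given as CPM, counts scaled to an effective library size. The tumor libraries are FPKM, fragment values scaled to transcript length and library size, and their depth is unknown. Since units and libraries differ, levels were never compared between mice with and without a tumor. Ncoa3, which encodes SRC-3, stood at 47.5 and 27.7 FPKM in SRC-3KO and 37.7 and 45.4 FPKM in control tumor libraries, and at 39.6 and 26.7 CPM in SRC-3KO Tregs and 131.5 and 54.1 CPM in the controls without a tumor. It passed the test in neither state with all 4 libraries in the fit, and the deleted part of the gene is not given, so these levels are no check of the genotype. Foxp3, the factor that defines Tregs, stood at 20.1 and 28.8 FPKM in SRC-3KO and 18.4 and 14.7 FPKM in control with a tumor, and at 21.1 and 10.2 CPM in SRC-3KO Tregs and 230.8 and 20.5 CPM in control without one. All 7 Treg markers were above 0 in every library. Their sums were 2568 and 2528 FPKM in SRC-3KO and 2205 and 1642 FPKM in control with a tumor. Without one they were 5768 and 5745 CPM in SRC-3KO Tregs and 3259 and 4127 CPM in control. The sums do not stand for each marker. Without a tumor the log2 fold change, SRC-3KO over control, was above 0 in 4 of the 7. It was below 0 in Foxp3 (-3.01), Cd4 (-0.65) and Cd3e (-0.31).

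The 2 controls of each state stood apart from each other in the interferon response genes, so every control library is given on its own. In tumor-bearing mice the 33 genes summed to 584.9 and 667.1 FPKM in SRC-3KO, against 747.0 FPKM in control replicate 1 and 2351 FPKM in control replicate 2. Without a tumor they summed to 1197 and 1128 CPM in SRC-3KO, against 311.8 CPM in control replicate 1 and 923.4 CPM in control replicate 2. The control that stood apart was thus the high one with a tumor and the low one without. Ifi27l2a and Bst2 together made up most of each of these sums. The FPKM of all genes summed to 416186 and 408458 in SRC-3KO against 514349 and 463082 in tumor control replicates 1 and 2.

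Neutrophil transcripts were high in control replicate 2 of each state. In both states this was also the control with the higher sum of the interferon response genes. That sum was above both SRC-3KO libraries with a tumor and below both without one. In tumor control replicate 2 all 7 neutrophil markers and all 7 monocyte and macrophage markers were above 0, among them Ly6g at 11.4 FPKM and Csf1r at 57.7 FPKM. Of the 7 neutrophil markers 4 and 7 were at 0 in SRC-3KO and 2 in control replicate 1. The neutrophil list summed to 1.56 and 0 FPKM in SRC-3KO and to 4.73 and 3963 FPKM in control replicates 1 and 2. The monocyte and macrophage list summed to 7.41 and 7.18 FPKM in SRC-3KO and to 6.67 and 1294 FPKM in those controls. Without a tumor the neutrophil list summed to 0.0363 and 1.58 CPM in SRC-3KO Tregs and to 0.0795 and 306.6 CPM in control replicates 1 and 2, and the monocyte and macrophage list to 25.1 and 78.8 CPM in SRC-3KO Tregs and 2.11 and 45.9 CPM in those controls. Lyz2, a lysozyme gene of myeloid cells, stood at 15 and 72.8 CPM in SRC-3KO Tregs against 0 and 42.3 CPM in the controls without a tumor. Myeloid cells express interferon response genes too, and the part of these cells in any result was not tested. In bulk RNA, fewer cells of a type and less RNA per cell cannot be told apart.

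**Figure D1:**
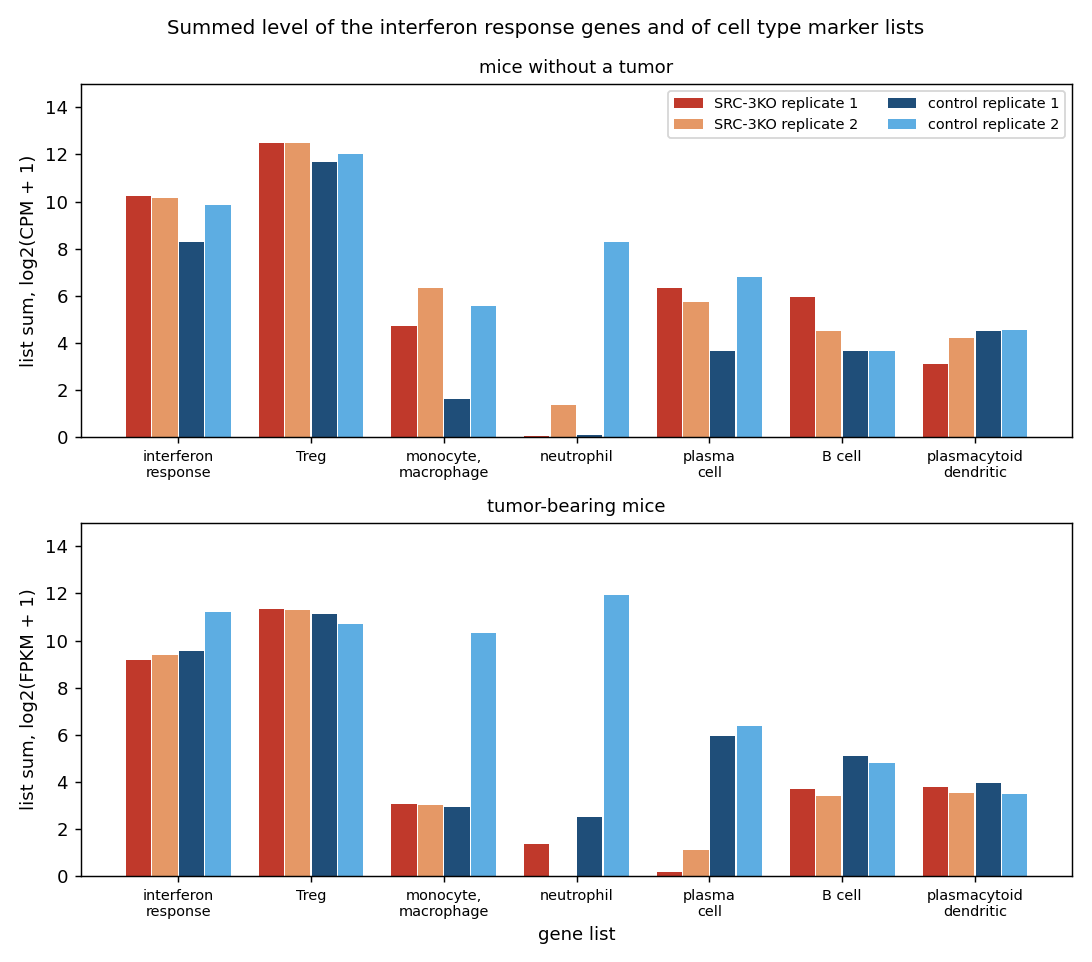
Summed level of the 33 interferon response genes and of 6 marker lists in each library, on a log2(sum + 1) axis, in CPM for mice without a tumor (upper panel) and FPKM for tumor-bearing mice (lower panel). Each bar is 1 library, SRC-3KO replicates left of control replicates. Tumor control replicate 2 had 2351 FPKM of interferon response genes, 3963 FPKM of neutrophil and 1294 FPKM of monocyte and macrophage transcripts.

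The element that ISGF3 binds can be read in the promoters of some of these genes. RefSeq promoter entries on GRCm38.p6, the assembly behind mm10, were matched for 24 of the 33 genes. The ISRE core was searched as GAAA, any 2 bases and GAAA again, on either strand, with overlapping matches counted, in the 250 bases before each start. It was present in 9 of the 24 genes (37.5%), against 3.46% of 27025 genes and 2.98% of 32851 promoters in the same collection. A match describes the letters and is not shown to be a bound site. The 8 promoters printed here are those with the highest mean FPKM of the 9, and let the element itself be seen. Each is a window of 120 upstream bases, written 5′ to 3′ on the gene's own strand, and capitals mark the ISRE core or a run of overlapping cores. The windows are Bst2 chr8:71537535-71537654 (minus strand), Isg15 chr4:156200826-156200945 (minus strand), Oas1a chr5:120907526-120907645 (minus strand), Trim30a chr7:104465194-104465313 (minus strand), Stat2 chr10:128270248-128270367 (plus strand), Ifit3 chr19:34583335-34583454 (plus strand), Ifit1 chr19:34640739-34640858 (plus strand) and Oas3 chr5:120777670-120777789 (minus strand).
Bst2: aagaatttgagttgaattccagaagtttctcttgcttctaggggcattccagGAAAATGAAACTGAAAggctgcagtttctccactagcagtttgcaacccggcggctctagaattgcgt
Isg15: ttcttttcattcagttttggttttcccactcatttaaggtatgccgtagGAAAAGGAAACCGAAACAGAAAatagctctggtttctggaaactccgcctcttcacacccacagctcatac
Oas1a: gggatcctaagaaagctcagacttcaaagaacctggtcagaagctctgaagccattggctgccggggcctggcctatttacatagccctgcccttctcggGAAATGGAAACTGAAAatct
Trim30a: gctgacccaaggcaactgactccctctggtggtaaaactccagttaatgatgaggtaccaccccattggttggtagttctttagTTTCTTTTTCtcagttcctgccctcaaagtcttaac
Stat2: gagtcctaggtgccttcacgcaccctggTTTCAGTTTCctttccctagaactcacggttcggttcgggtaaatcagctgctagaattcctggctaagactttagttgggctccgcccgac
Ifit3: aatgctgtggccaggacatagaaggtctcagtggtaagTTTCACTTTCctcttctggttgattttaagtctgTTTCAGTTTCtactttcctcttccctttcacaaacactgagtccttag
Ifit1: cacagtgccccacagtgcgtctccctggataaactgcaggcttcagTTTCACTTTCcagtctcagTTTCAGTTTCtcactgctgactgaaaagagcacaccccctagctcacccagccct
Oas3: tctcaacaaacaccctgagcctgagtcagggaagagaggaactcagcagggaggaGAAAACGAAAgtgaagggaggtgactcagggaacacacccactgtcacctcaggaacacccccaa
Isg15 holds 3 overlapping cores in 1 run, and Bst2 and Oas1a hold 2 each in 1 run. Ifit1 and Ifit3 hold 2 separate cores each, read as TTTC, 2 bases and TTTC on this strand. Stat2, Trim30a and Oas3 hold 1 core. Oas1a has its cores nearest to the start, at positions -20 to -5.

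In tumor-bearing mice, SRC-3KO Tregs held the interferon response genes below control replicate 2, with levels on both sides of control replicate 1. Of the 33 genes, 26 had at least 1 FPKM in at least 2 libraries and were tested with limma on log2(FPKM + 1), a scale that understates the change of low genes. Ifit3, Oas2, Oasl1, Oasl2, Ifi44, Mx1 and Rsad2 did not pass this filter. None was called at an adjusted p of 0.05, where 0.109% of the 12859 genes tested were called, and 3 of the 26 had an unadjusted p under 0.05 beside 2119 of all genes. The log2 fold change, SRC-3KO over control, was below 0 in 23 and above 0 in 3 of the 26, with a median of -0.66 beside -0.018 over all genes tested. Both SRC-3KO libraries lay below both controls in 10 of the 26 (38.5%), where 24.9% of all genes tested did so. They lay above both in 0, where 27.5% did so. Control replicate 2 was the highest library in all 26, so above both could only be 0. Below both was then the same as below control replicate 1, where 46.6% of all genes tested lay.

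Control replicate 2 stood apart in this pattern. It was the highest of the 4 tumor libraries in all 26 genes tested, where 18.4% of all genes tested had it highest, and in all 33 genes, where 23.6% of the 27033 genes above 0 in any library did. Against control replicate 1 alone, both SRC-3KO libraries were higher in 12 of the 26 genes (46.2%), where 39.7% of all genes tested were, and lower in 10 (38.5%), where 46.6% were. Those 10 genes are the same as the 10 below both controls: Bst2, Cmpk2, Ifi27l2a, Ifit1, Ifit2, Isg20, Rtp4, Usp18, Xaf1 and Zbp1.

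**Figure D2:**
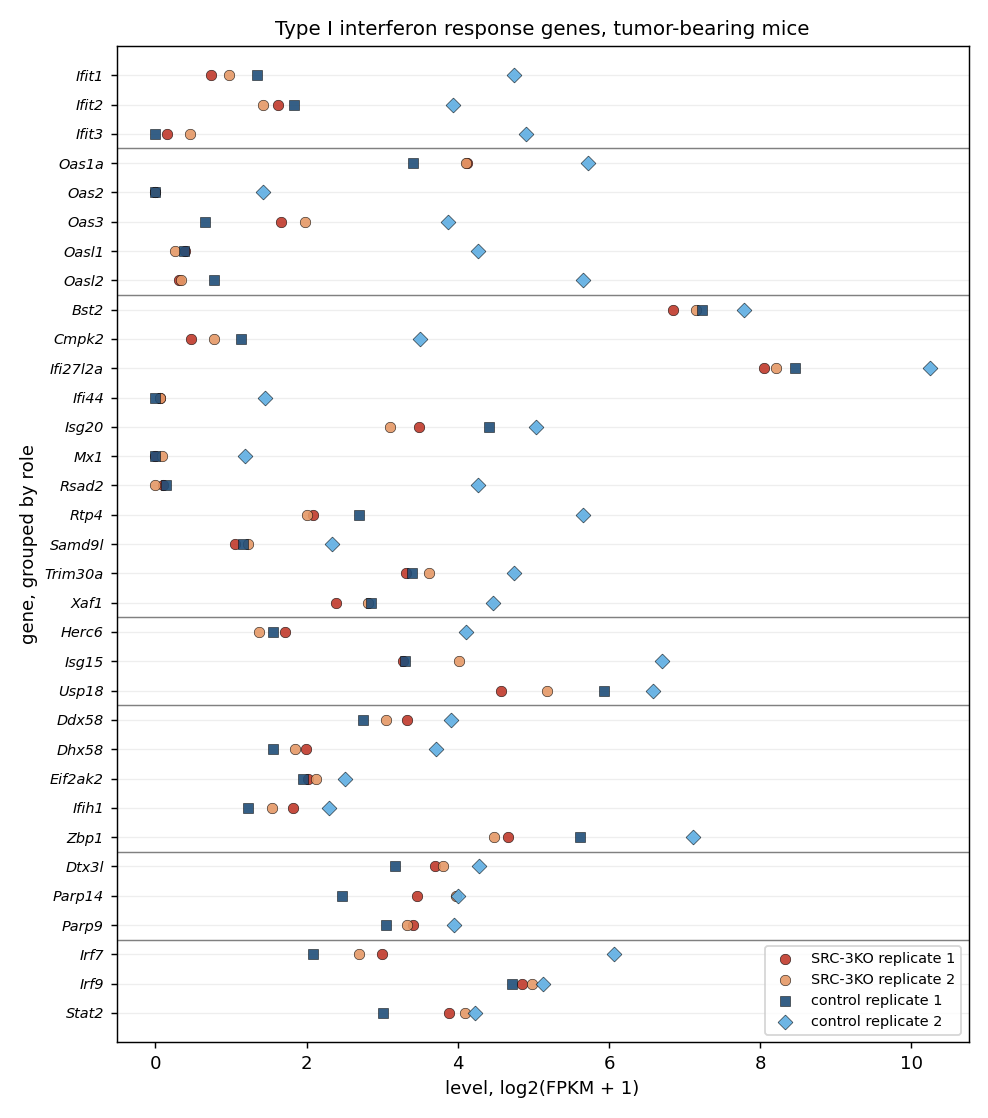
Level of each interferon response gene in the 4 libraries of tumor-bearing mice, as log2(FPKM + 1) on the horizontal axis, with genes grouped by role on the vertical axis. Red and orange circles are SRC-3KO libraries, and the dark square and light diamond are control replicates 1 and 2. The light diamond is the rightmost point of all 33 genes.

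Without a tumor the order was another one. Of the 33 genes, 27 passed edgeR's filter on low counts, and Oas2, Oasl1, Cmpk2, Ifi44, Mx1 and Rsad2 did not. None was called by edgeR's quasi-likelihood test, where 0% of the 14860 genes tested were called, and 1 of the 27 had an unadjusted p under 0.05 beside 472 of all genes. DESeq2 called 157 genes and 1 of the 33, Samd9l. The edgeR log2 fold change was above 0 in 22 and below 0 in 5 of the 27, with a median of 0.74 beside -0.019 over all genes tested. Both SRC-3KO libraries lay above both controls in 14 of the 27 (51.9%), where 23.8% of all genes tested did so, and below both in 1 (3.7%), where 16.9% did so. With 2 libraries against 2, an exact two-sided permutation test cannot go below p = 0.333, so single genes were tested only in the fits across all genes.

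Here control replicate 1, the library named WT, was lowest of the 4 in 16 of the 27 genes (59.3%), where it was lowest in 39.3% of all genes tested. Against control replicate 2 alone, which is named Foxp3-Cre as both tumor controls are, both SRC-3KO libraries were higher in 17 of the 27 genes (63%), where 45.9% of all genes tested were, and lower in 3 (11.1%), where 31.2% were. Those 3 were Stat2, Trim30a and Zbp1.

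**Figure D3:**
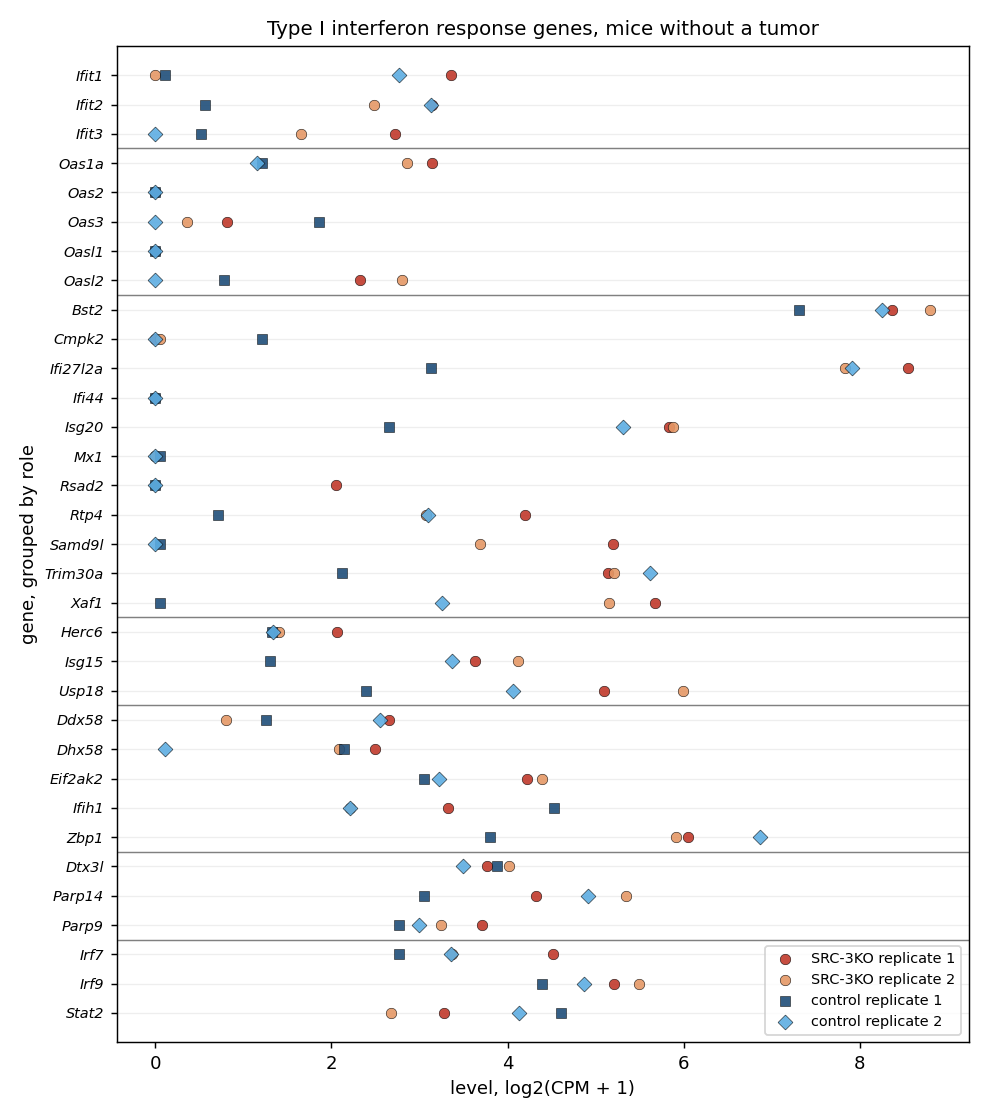
Level of each interferon response gene in the 4 libraries of mice without a tumor, as log2(CPM + 1) on the horizontal axis, with genes grouped by role on the vertical axis. Red and orange circles are SRC-3KO libraries, and the dark square and light diamond are control replicates 1 and 2. CPM is not scaled to length, so positions are to be compared within a gene. The dark square is the leftmost point in 16 of the 27 genes tested.

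Of the transcription factors of the response, Irf9 was close between genotypes with a tumor, Stat2 was low in control replicate 1 and Irf7 was high in control replicate 2. Irf9, the DNA-binding subunit of ISGF3, stood at 27.8 and 30.7 FPKM in SRC-3KO, between 25.4 and 34.1 FPKM in control replicates 1 and 2. Stat2, its partner, stood at 13.7 and 16.1 FPKM in SRC-3KO against 7.08 and 17.8 FPKM in control. Irf7, a factor that interferon induces and that drives further interferon genes, stood at 7.02 and 5.46 FPKM in SRC-3KO against 3.26 and 66.3 FPKM in control. In all 3 the SRC-3KO libraries lay between the controls, nearer to control replicate 2 for Stat2 and far below control replicate 2 for Irf7. The log2 fold changes were -0.0098 (SE 0.22) for Irf9, 0.37 (SE 0.42) for Stat2 and -1.24 (SE 1.23) for Irf7.

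Without a tumor Stat2 was the only gene of the 27 tested that lay below both controls in both SRC-3KO libraries. It was at 8.67 and 5.38 CPM in SRC-3KO Tregs against 23.4 and 16.5 CPM in control, with a log2 fold change of -1.50 (SE 0.83, edgeR adjusted p = 0.910). Irf9 had the other order, at 36.0 and 44.0 CPM in SRC-3KO Tregs against 20.0 and 28.2 CPM in control. Irf7 stood at 21.9 and 9.32 CPM in SRC-3KO Tregs against 5.80 and 9.27 CPM in control, so that SRC-3KO replicate 2 and control replicate 2 were nearly level. Stat2 and Irf9 thus had opposite orders, Stat2 lower and Irf9 higher in both SRC-3KO libraries.

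The ISG15 system attaches the ubiquitin-like protein Isg15 to other proteins. Isg15 (ENSMUSG00000035692, mm10 chromosome 4, 156199424 to 156200818, minus strand) stood at 8.69 and 15.2 FPKM in SRC-3KO, against 8.83 and 103.5 FPKM in tumor control replicates 1 and 2. SRC-3KO replicate 1 and control replicate 1 were level, and control replicate 2 alone was high. Its promoter is the one with 3 overlapping ISRE cores printed above. Usp18 (ENSMUSG00000030107, chromosome 6, 121245906 to 121270917, plus strand), which removes Isg15 from proteins and inhibits the interferon receptor, stood at 22.8 and 35.4 FPKM in SRC-3KO against 60.0 and 95.1 FPKM in tumor control. Its groups did not overlap, with a log2 fold change of -1.38 (SE 0.32, unadjusted p = 0.00670, limma adjusted p = 0.172). Herc6, a ligase for Isg15 in mice, stood at 2.27 and 1.59 FPKM in SRC-3KO against 1.95 and 16.2 FPKM in tumor control.

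Without a tumor all 3 genes of this system lay above both controls in the SRC-3KO libraries, as did 23.8% of all genes tested. Usp18 stood at 33.2 and 62.8 CPM in SRC-3KO Tregs against 4.25 and 15.7 CPM in control, its log2 fold change being 2.26 (SE 0.97, edgeR adjusted p = 0.910). Isg15 stood at 11.4 and 16.4 CPM in SRC-3KO Tregs against 1.47 and 9.35 CPM in control, with a log2 fold change of 1.36 (SE 1.13). Herc6 stood at 3.19 and 1.65 CPM in SRC-3KO Tregs against 1.51 and 1.53 CPM in control, so that SRC-3KO replicate 2 was close to the controls.

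The IFIT proteins bind viral RNA and block its translation, and their genes lie together on chromosome 19, from Ifit2 (34550694 to 34576419) over Ifit3 (34583531 to 34588731) to Ifit1 (34640871 to 34650009), all on the plus strand. With a tumor the gap between the controls was wide. Ifit1 stood at 0.659 and 0.955 FPKM in SRC-3KO against 1.53 and 25.8 FPKM in control, and Ifit2 at 2.09 and 1.67 FPKM in SRC-3KO against 2.56 and 14.3 FPKM in control. Ifit3 stood at 0.117 and 0.377 FPKM in SRC-3KO and was listed at 0 in control replicate 1 and at 29.0 FPKM in control replicate 2. Ifit1 was thus 16.8 times and Ifit2 5.58 times as high in control replicate 2 as in control replicate 1, and the SRC-3KO libraries lay below both. The log2 fold changes were -2.19 (SE 1.06) for Ifit1 and -1.36 (SE 0.68) for Ifit2, and Ifit3 was not tested. Ifit3 has a near-identical copy, Ifit3b, which was listed at 9.65 FPKM in control replicate 2, and reads shared between such copies make both values uncertain.

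Without a tumor the IFIT genes did not keep to the groups. Ifit1 had 256 and 0 counts in SRC-3KO and 2 and 152 counts in control, so that 1 library of each group was high and the other at or near 0. Ifit2 stood at 7.80 and 4.61 CPM in SRC-3KO Tregs against 0.477 and 7.78 CPM in control. Ifit3 had 155 and 61 counts in SRC-3KO and 11 and 0 counts in control, the only IFIT gene whose groups did not overlap, with a log2 fold change of 4.13 (SE 2.12, edgeR adjusted p = 0.910). A count of 0 allows up to 0.106 CPM in SRC-3KO replicate 2 and 0.114 CPM in control replicate 2, taking 3 counts as the limit, for counting error only.

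Active enzymes of the OAS family make short oligoadenylates that switch on RNase L. The genes of the family lie in 2 groups on chromosome 5. Oas1a (ENSMUSG00000052776, 120896256 to 120907521, minus strand) stood at 16.4 and 16.3 FPKM in SRC-3KO, between 9.61 and 51.6 FPKM in tumor control replicates 1 and 2. Oas3 likewise lay between the controls, at 2.15 and 2.95 FPKM in SRC-3KO against 0.569 and 13.6 FPKM in control. Both had a log2 fold change of -0.44 (SE 0.73 for Oas1a and 1.01 for Oas3). Oas2, Oasl1 and Oasl2 were not tested because only control replicate 2 reached 1 FPKM. Oasl2 stood at 0.240 and 0.264 FPKM in SRC-3KO against 0.704 and 49.6 FPKM in control, Oasl1 at 0.314 and 0.198 FPKM in SRC-3KO against 0.296 and 18.3 FPKM in control, and Oas2 was listed at 0 in all but control replicate 2, at 1.69 FPKM.

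Without a tumor Oas1a lay higher in both SRC-3KO libraries, at 7.80 and 6.26 CPM, than in either control, at 1.31 and 1.22 CPM. Replicates were close in both groups, and the log2 fold change was 2.47 (SE 1.10, unadjusted p = 0.0657, edgeR adjusted p = 0.910). Its close relative Oas1g had 0 counts in all 4 of these libraries but was listed at 2.14 and 1.95 FPKM in SRC-3KO and 1.72 and 20.9 FPKM in control with a tumor, so reads may be divided between the copies in ways that differ between the tables. Oasl2 stood at 3.99 and 5.98 CPM in SRC-3KO Tregs against 0.715 and 0 CPM in control. Oas3 was highest in control replicate 1, at 0.762 and 0.281 CPM in SRC-3KO Tregs against 2.62 and 0 CPM in control. Oas2 and Oasl1 had 0 counts in all 4 libraries, which allows up to 0.109 and 0.106 CPM in SRC-3KO Tregs and 0.119 and 0.114 CPM in control.

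The nucleic acid sensors split into Zbp1 and the rest. Zbp1 (ENSMUSG00000027514, chromosome 2, 173206612 to 173218923, minus strand), which binds Z-form nucleic acid and starts cell death, stood at 24.4 and 21.3 FPKM in SRC-3KO against 48.1 and 137.4 FPKM in tumor control. Its groups did not overlap, and the log2 fold change was -1.79 (SE 0.49, unadjusted p = 0.0129, limma adjusted p = 0.211). The RNA sensors Ddx58 (RIG-I), Ifih1 (MDA5) and Dhx58 (LGP2) and the kinase Eif2ak2 (PKR), which stops translation on double-stranded RNA, lay between the tumor controls in both SRC-3KO libraries. Ddx58 stood at 9.07 and 7.25 FPKM in SRC-3KO against 5.73 and 14.0 FPKM in control, Dhx58 at 2.97 and 2.61 against 1.93 and 12.1 FPKM, Ifih1 at 2.52 and 1.91 against 1.34 and 3.93 FPKM, and Eif2ak2 at 3.05 and 3.37 against 2.86 and 4.68 FPKM. Their log2 fold changes ran over -0.71 (SE 0.70) for Dhx58, -0.15 (SE 0.28) for Eif2ak2, -0.14 (SE 0.41) for Ddx58 and -0.086 (SE 0.41) for Ifih1.

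Without a tumor Eif2ak2 was the sensor whose groups did not overlap, at 17.6 and 20.0 CPM in SRC-3KO Tregs against 7.27 and 8.36 CPM in control, with a log2 fold change of 1.27 (SE 0.79, edgeR adjusted p = 0.910). Zbp1 stood at 65.3 and 59.3 CPM in SRC-3KO, between 12.9 and 116.0 CPM in control replicates 1 and 2, with a log2 fold change of -0.048 (SE 1.10). Ifih1 was highest in control replicate 1, at 9 and 3.62 CPM in SRC-3KO Tregs against 22.0 and 3.62 CPM in control. Ddx58 stood at 5.30 and 0.739 CPM in SRC-3KO Tregs against 1.39 and 4.85 CPM in control. Dhx58 stood at 4.64 and 3.24 CPM in SRC-3KO Tregs against 3.42 and 0.0763 CPM in control. The last 3 overlapped between groups, and their replicates differed widely within a group.

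Among the other antiviral effectors, Isg20 and Bst2 had non-overlapping groups in both states, in opposite directions, as did Usp18, Oasl2 and Xaf1. All 5 lay above both controls without a tumor and below both with one in the SRC-3KO libraries. Of the 25 members tested in both states 4 (16%) did so, where 8.57% of the 11674 genes tested in both did, and Oasl2 was not tested with a tumor. The other order, below without a tumor and above with one, was seen in 0 of the 25, where 7.14% of those genes had it. Control replicate 2 was the highest tumor library in all 26 genes tested with a tumor, so none could have had this order. Below both tumor controls likewise meant only below control replicate 1. Isg20 (ENSMUSG00000039236, chromosome 7, 78913424 to 78920396, plus strand), an exonuclease that degrades RNA, stood at 10.2 and 7.56 FPKM in SRC-3KO against 20.3 and 31.8 FPKM in tumor control. Its log2 fold change there was -1.43 (SE 0.29, unadjusted p = 0.00346, limma adjusted p = 0.156). Without a tumor its level was 56.1 and 58.0 CPM in SRC-3KO Tregs against 5.28 and 38.8 CPM in control, with a log2 fold change of 1.37 (SE 1.06, edgeR adjusted p = 0.910). Bst2 (ENSMUSG00000046718, chromosome 8, 71534255 to 71537456, minus strand), the tetherin that holds budding virus at the cell surface, stood at 113.7 and 140.9 FPKM in SRC-3KO against 149.0 and 219.2 FPKM in tumor control. Without a tumor its level was 330.4 and 443.9 CPM in SRC-3KO Tregs against 157.4 and 305.4 CPM in control. Bst2 differed least between tumor controls of the effectors tested, with control replicate 2 at 1.47 times control replicate 1.

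Ifi27l2a (ENSMUSG00000079017, chromosome 12, 103442167 to 103443680, minus strand), a small interferon-induced protein, had the highest FPKM of the 33. It was at 264.9 and 295.9 FPKM in SRC-3KO against 352.2 and 1211 FPKM in tumor control, with a log2 fold change of -1.22 (SE 0.59). Without a tumor its level was 374.6 and 227.2 CPM in SRC-3KO, 7.79 CPM in control replicate 1 and 240.4 CPM in control replicate 2. Control replicate 2 thus lay within the SRC-3KO range, and control replicate 1 alone was low. Xaf1, a protein that promotes cell death, had the same low library, at 50.1 and 34.5 CPM in SRC-3KO Tregs against 0.0397 and 8.58 CPM in control, the lower value being 1 count. With a tumor Xaf1 stood at 4.25 and 6.02 FPKM in SRC-3KO against 6.25 and 21.1 FPKM in control.

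Samd9l (ENSMUSG00000047735, chromosome 6, 3372257 to 3399572, minus strand), which restrains translation and cell growth, had the lowest p of the 27 genes tested without a tumor. It had 985 and 338 counts in SRC-3KO against 1 and 0 counts in control, or 35.7 and 11.9 CPM against 0.0397 and 0 CPM. Both SRC-3KO libraries were far above both controls, and SRC-3KO replicate 1 was well above replicate 2. The ratio of pooled counts, scaled to library size, was 1214 with an exact 95% interval of 217.5 to 47988, which covers counting error only. The edgeR unadjusted p was 0.000888 and the adjusted p 0.910, while DESeq2 called the gene (adjusted p = 0.000108). With a tumor Samd9l did not have this gap, at 1.07 and 1.33 FPKM in SRC-3KO against 1.23 and 4.05 FPKM in control.

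Rtp4, a chaperone of membrane receptors, stood at 3.26 and 3.01 FPKM in SRC-3KO against 5.49 and 49.6 FPKM in tumor control, and at 17.4 and 7.39 CPM in SRC-3KO Tregs against 0.636 and 7.55 CPM in the controls without a tumor. Trim30a, a member of the TRIM family of ubiquitin ligases, stood at 8.97 and 11.3 FPKM in SRC-3KO against 9.56 and 25.9 FPKM in tumor control, and at 34.4 and 36.0 CPM in SRC-3KO Tregs against 3.34 and 48.0 CPM in the controls without a tumor. In both genes the control that stood apart was the high one with a tumor and the low one without. Trim30a shares sequence with Trim30d, so its reads are uncertain.

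Cmpk2, a nucleotide kinase of mitochondria, and Rsad2 (viperin), which makes a chain-ending nucleotide that stops viral RNA synthesis, are neighbours on chromosome 12 and were almost silent outside single libraries. Cmpk2 stood at 0.391 and 0.710 FPKM in SRC-3KO against 1.20 and 10.3 FPKM in tumor control, and Rsad2 at 0.0690 and 0 FPKM in SRC-3KO against 0.104 and 18.3 FPKM in tumor control. Rsad2 was 175.7 times as high in tumor control replicate 2 as in control replicate 1, the widest gap between tumor controls among the genes above 0 in both. Without a tumor Rsad2 had 87 and 0 counts in SRC-3KO and 0 in both controls, and Cmpk2 had 0 and 1 counts in SRC-3KO and 33 and 0 in control. Each was thus above the 3-count limit in 1 library, an SRC-3KO one for Rsad2 and the WT control for Cmpk2. Mx1, a GTPase that blocks viral polymerases and that many laboratory mouse strains carry in a disrupted form, and Ifi44 were listed at or below 0.0590 FPKM in all tumor libraries but control replicate 2, where they stood at 1.27 and 1.73 FPKM. Without a tumor Mx1 had 1 count in control replicate 1 and 0 elsewhere, and Ifi44 had 0 counts in all 4 libraries.

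The ADP-ribosyltransferase genes Parp9 and Parp14 and Dtx3l, the ubiquitin ligase that pairs with Parp9, lie together on chromosome 16. Parp14 (ENSMUSG00000034422, 35832874 to 35871544, minus strand) stood at 10 and 14.7 FPKM in SRC-3KO against 4.54 and 15 FPKM in control, Dtx3l at 12.0 and 13.0 against 8.01 and 18.4 FPKM, and Parp9 at 9.61 and 9.03 against 7.30 and 14.4 FPKM. All 3 lay between the controls in both SRC-3KO libraries, with log2 fold changes of 0.48 (SE 0.53), 0.026 (SE 0.39) and -0.13 (SE 0.34). Without a tumor Parp9 lay higher in both SRC-3KO libraries, at 12.1 and 8.51 CPM against 5.80 and 6.98 CPM in control. Parp14 stood at 19 and 39.6 CPM in SRC-3KO Tregs against 7.27 and 29.1 CPM in control, and Dtx3l at 12.6 and 15.2 CPM in SRC-3KO Tregs against 13.7 and 10.3 CPM in control. Dtx3l (35926511 to 35939151, minus strand) and Parp9 (35938470 to 35972605, plus strand) overlap at their starts, and the strand setting of the counting is not given, so reads of the overlap cannot be told apart.

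Leaving out each control in turn gave different genes. With tumor control replicate 2 as the only control, limma called 12 of 24 genes tested as lower in SRC-3KO (50%), where 2.38% of all genes tested were called lower, and 0 as higher, where 1.31% were. The 12 were Dhx58, Herc6, Ifi27l2a, Ifit2, Irf7, Isg15, Isg20, Oas1a, Oas3, Rtp4, Xaf1 and Zbp1, and the median log2 fold change was -1.65. With tumor control replicate 1 as the only control, 4 of 24 were called higher (16.7%; 8.15% of all genes tested) and 2 lower (8.33%; 12.0% of all genes tested), with a median of 0.16. Those called higher were Oas1a (0.71, SE 0.15, limma adjusted p = 0.0436), Oas3 (1.17, SE 0.26), Parp14 (1.25, SE 0.27) and Stat2 (0.97, SE 0.18). Those called lower were Isg20 (-1.12, SE 0.22, limma adjusted p = 0.0413) and Zbp1 (-1.04, SE 0.14, limma adjusted p = 0.0284). Isg20 and Zbp1 were thus lower against each tumor control taken alone, while Oas1a and Oas3 had opposite directions. Both fits use the same SRC-3KO libraries and leave out the spread between the controls, so they do not back each other independently. With all 4 libraries neither Isg20 nor Zbp1 was called (limma adjusted p = 0.156 and 0.211).

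Without a tumor the result changed most when only control replicate 1, the WT library, was kept as control. With it as the only control, edgeR called 13 of 29 genes tested as higher in SRC-3KO (44.8%), where 22.2% of all genes tested were called higher, and 1, Stat2, as lower (3.45%), where 21.6% were. The 13 were Bst2, Ifi27l2a, Ifit2, Isg15, Isg20, Oas1a, Oasl2, Rtp4, Samd9l, Trim30a, Usp18, Xaf1 and Zbp1, with a median over the 29 of 2.25. With control replicate 2 as the only control edgeR called 0 of 28 and 1 of all 15919 genes tested. An unadjusted p under 0.05 was met by 10 of the 28 beside 3073 of all genes, and the median was 0.52 beside 0.078 over all genes. In each of these fits the lone control is assumed to vary as the SRC-3KO libraries do.

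**Figure D4:**
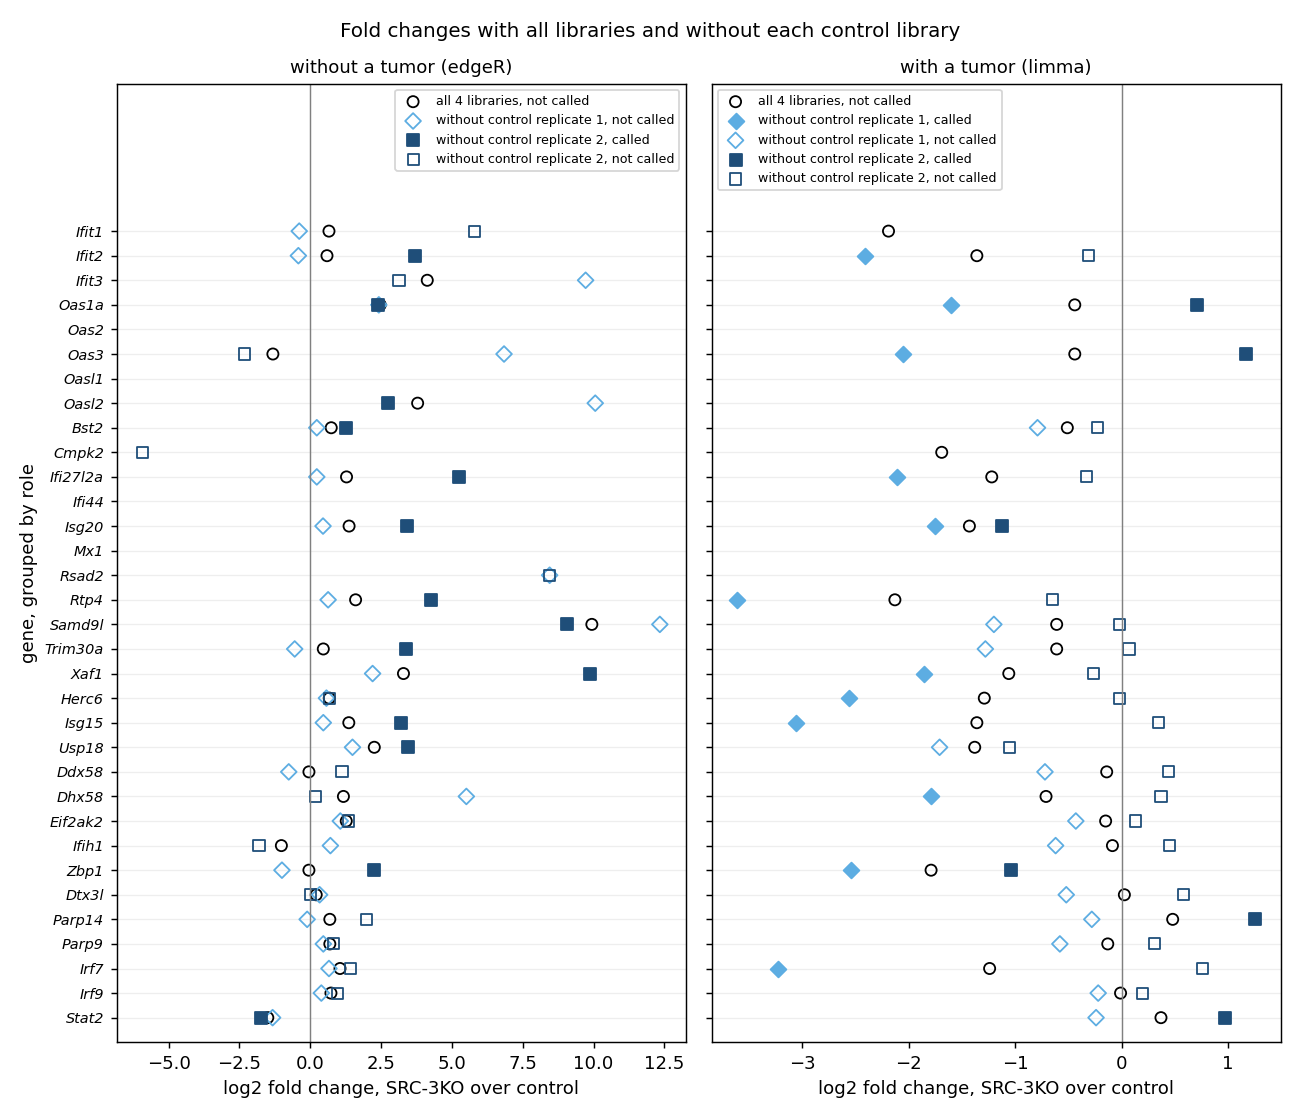
Log2 fold change of each interferon response gene, SRC-3KO over control, without a tumor (left, edgeR) and with a tumor (right, limma), with all 4 libraries (circles), without control replicate 1 (diamonds) and without control replicate 2 (squares). Filled symbols passed an adjusted p of 0.05 over all genes tested. The right panel holds 12 filled diamonds left of 0, and 4 filled squares right and 2 left of 0.

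The rest of the pathway was followed in 3 lists, and none of their genes was called in either state by limma or edgeR with all 4 libraries in the fit. DESeq2 called 1 of them without a tumor, Irf5 as lower. Against the WT control alone, where 22.2% of all genes tested were called higher and 21.6% lower, edgeR called 3 genes higher and 8 lower of 16 in the receptor chain, 3 higher and 8 lower of 16 sensors and adaptors, and 14 higher and 6 lower of 33 further induced genes. Against tumor control replicate 1 alone the median log2 fold change was 0.18 in the receptor chain, beside -0.051 over all genes tested. In the sensors and adaptors it was 0.086. Against tumor control replicate 2 alone the 2 medians were -0.29 and -0.13, beside 0.05 over all genes tested. Of 20 genes of the interferons, their receptors and signalling chain, 16 were tested in each state. Their median log2 fold change was 0.021 with a tumor and -0.35 without, beside -0.018 and -0.019 over all genes tested. Without a tumor it was 0.25 against control replicate 2 alone (0.078 over all genes tested) and -0.83 against control replicate 1 alone (-0.16). An unadjusted p under 0.05 was met by 2 of the 16 with a tumor, beside 2119 of 12859 genes tested. Without a tumor it was met by 0, beside 472 of 14860. The interferon genes Ifnb1, Ifna2, Ifna4 and Ifna5 were at 0 in all 8 libraries, and are named after their values were seen. Ptpn6, a phosphatase that dampens the chain, stood at 111.7 and 141.6 FPKM in SRC-3KO against 207.9 and 267.4 FPKM in tumor control, its log2 fold change being -0.90 (SE 0.24, limma adjusted p = 0.209). Tyk2, the kinase on Ifnar1, stood at 22.5 and 21.8 FPKM in SRC-3KO against 11.7 and 15.2 FPKM in tumor control (0.69, SE 0.21, limma adjusted p = 0.233). Stat3 stood at 178.5 and 149.5 FPKM in SRC-3KO against 100.6 and 130.3 FPKM in tumor control, and Irf1 at 51.2 and 63.4 FPKM in SRC-3KO against 64.8 and 102.3 FPKM. Of these 4, Stat3 and Irf1 kept apart from both controls without a tumor as well, in the other direction. Stat3 stood at 73.2 and 87.9 CPM in SRC-3KO Tregs against 376.3 and 105.5 CPM in control, and Irf1 at 479.0 and 552.6 CPM in SRC-3KO Tregs against 113.5 and 398.0 CPM. Jak2 stood at 29.7 and 46.2 CPM in SRC-3KO Tregs against 324.9 and 47.3 CPM in control, Ifngr1 at 226.7 and 103.7 CPM in SRC-3KO Tregs against 55.2 and 62.1 CPM, and Jak1 at 230.6 and 234.9 CPM in SRC-3KO Tregs against 71.9 and 150.1 CPM. Of these 3 kinase and receptor genes, Jak2 lay below both controls in the SRC-3KO libraries and the others above both.

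Of 21 sensors and adaptors upstream of interferon production, 19 were in the tables and 15 were tested in each state. Their median was -0.055 with a tumor and -0.86 without, beside -0.018 and -0.019 over all genes tested. Without a tumor it was -0.53 against control replicate 2 alone and -1.43 against control replicate 1 alone. An unadjusted p under 0.05 was met by 2 with a tumor, beside 2119 of 12859 genes tested, and 1 without, beside 472 of 14860. Without a tumor 12 of the 15 had a log2 fold change below 0. Irf5, a factor that induces interferon and inflammatory genes, stood at 1.89 and 1.62 CPM in SRC-3KO Tregs against 56.0 and 7.59 CPM in control (-4.18, SE 1.23, edgeR adjusted p = 0.910). Cgas, the cytosolic DNA sensor, stood at 1.49 and 3.87 CPM in SRC-3KO Tregs against 18.3 and 9.65 CPM in control. The adaptor Traf3 stood at 14.2 and 18.8 CPM in SRC-3KO Tregs against 66.1 and 25.1 CPM in control, and the kinase Ikbke at 13.1 and 5.10 CPM in SRC-3KO Tregs against 26.2 and 22.7 CPM. In all 4 genes both SRC-3KO libraries lay below both controls. They were named for the smallest p of the list, a choice that favours groups that do not overlap. Of the 19 genes 7 lay below both controls and 1 above both, beside 16.9% and 23.8% of all genes tested. With a tumor Traf3 had the other order, at 7.01 and 7.69 FPKM in SRC-3KO against 3.31 and 4.40 FPKM in control (0.79, SE 0.24, limma adjusted p = 0.233). Adar, which edits double-stranded RNA, stood at 12.4 and 12.8 FPKM in SRC-3KO against 5.84 and 9.17 FPKM in tumor control. Ifi203, a DNA-binding protein, stood at 3.10 and 2.22 FPKM in SRC-3KO against 3.33 and 6.66 FPKM in tumor control. The DNA sensor Aim2 stood at 1.79 and 2.73 FPKM in SRC-3KO against 1.26 and 1.65 FPKM in tumor control. Traf3, Adar and Aim2 thus lay above and Ifi203 below both tumor controls in the SRC-3KO libraries.

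Of 35 further genes that type I interferon induces, 28 were tested with a tumor and 29 without. Their medians were -0.36 and 0.14, beside -0.018 and -0.019 over all genes tested. Without a tumor the median was 0.44 against control replicate 2 alone and 1.97 against control replicate 1 alone. An unadjusted p under 0.05 was met by 6 with a tumor, all lower, beside 2119 of 12859 genes tested, and 0 without, beside 472 of 14860. Sp100, a nuclear body protein, stood at 20.9 and 18.6 FPKM in SRC-3KO against 35.8 and 38.5 FPKM in tumor control, so that here the controls were alike (-0.88, SE 0.18, limma adjusted p = 0.156). Lgals9, a secreted galectin, also had like controls, at 62.7 and 63.2 FPKM in SRC-3KO against 97.2 and 98.8 FPKM (-0.63, SE 0.17, limma adjusted p = 0.214). Phf11b stood at 25.8 and 25.0 FPKM in SRC-3KO against 41.0 and 67.1 FPKM in tumor control, and Ms4a4c at 1.86 and 1.72 FPKM in SRC-3KO against 5.11 and 41.9 FPKM. Against tumor control replicate 1 alone the median log2 fold change of 27 genes tested was 0.04, beside -0.051 over all genes tested. Against tumor control replicate 2 alone the median of 28 genes was -0.73, beside 0.05 over all genes tested. Parp12 lay between the tumor controls, at 5.61 and 5.52 FPKM in SRC-3KO against 1.28 and 22.4 FPKM. Lgals3bp did so too, at 48.9 and 44.2 FPKM in SRC-3KO against 29.6 and 94 FPKM. Without a tumor the 4 with the lowest p were Tor3a, at 0.653 and 3.66 CPM in SRC-3KO Tregs against 38.8 and 5.91 CPM in control, Pml, at 17.5 and 18.4 against 96.5 and 36.1 CPM, Trim30d, at 8.42 and 5.42 against 0.834 and 1.60 CPM, and Slfn1, at 204.7 and 119.1 against 6.28 and 55.9 CPM. Tor3a and Pml lay below both controls in the SRC-3KO libraries, and Trim30d and Slfn1 above both.

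Transcripts of B lineage cells differed between the same groups with a tumor and not only in 1 library. The 5 B cell markers summed to 12.2 and 9.75 FPKM in SRC-3KO against 33.5 and 26.8 FPKM in tumor control, and the 3 plasma cell markers to 0.142 and 1.14 FPKM in SRC-3KO against 60.5 and 82.3 FPKM. Of these, limma called Cd79a, Jchain and Mzb1 as lower in SRC-3KO. Without a tumor the B cell markers summed to 60.7 and 22.1 CPM in SRC-3KO Tregs against 11.6 CPM in each control, and the plasma cell markers to 79.1 and 51.8 CPM in SRC-3KO Tregs against 11.8 and 110.9 CPM in control. Markers of plasmacytoid dendritic cells, which make much type I interferon, summed to 12.8 and 10.5 FPKM in SRC-3KO against 14.6 and 10.2 FPKM in tumor control and to 7.55 and 17.8 CPM against 22.1 and 22.5 CPM without a tumor. Their defining marker Siglech was listed at 0 in all tumor libraries but control replicate 2, at 1.15 FPKM. Klk1 and Ccr9 were also highest in that library, at 0.115 and 1.54 FPKM, and Cox6a2 in control replicate 1, at 1.34 FPKM. Pacsin1 made up most of each sum, at 12.8 and 10.5 FPKM in SRC-3KO against 13 and 6.79 FPKM in tumor control. Markers of conventional dendritic cells summed to 5.13 and 6.97 FPKM in SRC-3KO against 3.24 and 9.39 FPKM in tumor control, and to 4.94 and 1.93 CPM against 4.29 and 1.91 CPM without a tumor. Markers of CD8 T and NK cells summed to 58.4 and 37.1 FPKM in SRC-3KO against 157.3 and 100 FPKM in tumor control, and to 555.3 and 407.8 CPM against 1333 and 122.8 CPM without a tumor. Nkg7 made up most of each sum, at 50.4 and 28.1 FPKM in SRC-3KO against 151.3 and 92.3 FPKM in tumor control. Cd8b1 had the other order with a tumor, at 7.69 and 7.74 FPKM in SRC-3KO against 4.67 and 6.16 FPKM. The other 4 markers overlapped between the tumor groups. Erythroid markers summed to 0.07 and 0.0933 FPKM in SRC-3KO against 1.22 and 26.4 FPKM in tumor control, and to 0.689 and 0.141 CPM against 0.238 and 0 CPM without a tumor. The part of these cells in the levels of the 33 genes was not tested.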

How the data were processed

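RNA-seq of 8 splenic Treg libraries was analysed from 2 tables. The authors deposited raw read counts of the 4 libraries without a tumor and FPKM of the 4 tumor libraries. Per the submitters' processing notes FastQC and Trim Galore, STAR on mm10, featureCounts and edgeR were used, and per the file headers and names the FPKM came from StringTie. Neither versions nor the strand setting or the annotation are given in the sources used here. Genes were placed by matching 55141 IDs to GENCODE M21, and promoters came from RefSeq on GRCm38.p6.

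CPM were computed from the deposited counts with TMM factors (0.916 to 1.09). Counts were tested with edgeR 4.0.16 (R 4.3.3; filterByExpr, quasi-likelihood, common dispersion 0.791), and the deposited FPKM with limma 3.58.1 with a trend, on log2(FPKM + 1) of genes at 1 FPKM or more in at least 2 libraries. Each fit held the 4 libraries of 1 state, with Benjamini-Hochberg adjustment over all genes and a threshold of 0.05. For edgeR the SE is the log2 fold change divided by the root of its F statistic. Members and lists were chosen with earlier results of these data known. All 33 members are named. Of each pathway list, genes called and otherwise up to 4 with the smallest unadjusted p per comparison are named. Alternatives were DESeq2 1.42.0, median-of-ratios scaling, no filter, a pseudocount of 0.1, a replicate block and leaving out each of the 8 libraries. Intervals and 3-count limits cover counting error only. The depth of the FPKM libraries is unknown.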

Additional observations from a re-analysis of the deposited data

Results flagged for a closer look

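In 5 genes both SRC-3KO libraries lay above both controls without a tumor and below both controls with one. Of the 25 members tested in both states 4 did so (16%), beside 8.57% of the 11674 genes tested in both, and the fifth, Oasl2, was not tested with a tumor. The log2 fold changes with a tumor, SRC-3KO over control, were -2.89 for Oasl2, -1.38 for Usp18, -1.43 for Isg20, -1.06 for Xaf1 and -0.51 for Bst2. Without a tumor they were 3.79 for Oasl2, 2.26 for Usp18, 1.37 for Isg20, 3.29 for Xaf1 and 0.74 for Bst2. The difference between the states was not tested, since the states are in separate tables with different units, and each state has its own controls. The Oasl2 value with a tumor is the difference of mean log2(FPKM + 1), as Oasl2 was under the filter on low values there. In both states the control that stood apart was on the outer side: control replicate 1 was the lowest library without a tumor in Usp18, Isg20, Xaf1 and Bst2, and control replicate 2 the highest library with a tumor in all 5.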

How the results depend on the processing

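Leaving out single libraries moved the results most. Without a tumor, genes called ranged from 0 to 7434 when each library was left out, genes of the 33 called from 0 to 14 and their median from 0.52 to 2.25, the upper values without control replicate 2. With a tumor, genes called ranged from 31 to 2510 without control replicate 2, with 459 without control replicate 1, genes of the 33 called from 0 to 12 without control replicate 1, and their median from -1.65 without control replicate 1 to 0.16 without control replicate 2. For 3 genes without a tumor and 7 with one these values lay on both sides of 0 with at least 1 of them called. In 3 of them a call had the sign opposite to the fit of all 4 libraries: Zbp1 without a tumor ranged from -1.0 to 2.25, and with a tumor Oas1a from -1.60 to 0.71 and Oas3 from -2.05 to 1.17, the upper values without control replicate 2. The others were Ifit2 and Trim30a without a tumor, and Dhx58, Irf7, Isg15, Parp14 and Stat2 with one. The cause was not tested.

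Without a tumor, where edgeR called 0 genes, DESeq2 called 157 and edgeR with no filter on low counts 70, and each called 1 of the 33, Samd9l. Median-of-ratios size factors called 0 and gave a median of 0.62 beside -0.15 over all genes. DESeq2 put the median of all genes at -0.87 and that of the members at 0.61. With a tumor, where limma called 14 genes, a pseudocount of 0.1 called 7, no filter 1 and the replicate block 72, each with 0 of the 33. The replicate block kept the median at -0.66. Same-numbered tumor libraries deviated from their group means together only weakly (correlation 0.0357 across the genes that passed the filter), so the numbers were not taken as pairs. Under the block 9 of the 26 had an unadjusted p under 0.05, beside 3 without it. Scaling, pseudocount, filter and block changed the direction of none of the 26 genes tested with a tumor.

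Depth limits the low genes: a count of 0 allows up to 0.106 to 0.119 CPM without a tumor, and the depth behind the FPKM is unknown.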
